A study of Mus musculus with 79 samples.

Results

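Lungs of wild-type C57BL/6 mice that had spent 4 h of the light phase in 6% oxygen were compared with lungs of mice kept over the same hours in synthetic air with 21% oxygen. The members are the 8 lung libraries labelled ZT4-8, 4 for each oxygen level, out of 79 libraries in the series. ZT is zeitgeber time, counted in hours from lights on in a cycle of 12 h light and 12 h dark, so the exposure ran from hour 4 to hour 8. All 8 mice were 3 months old, carried no targeted allele, were moved into a sealed cage with a constant flow of gas, and were killed directly after the exposure. Each group therefore shares the transfer to the cage, and differs in the oxygen of the gas mixture, whose balance was nitrogen. The design lists 4 mice a condition as biological replicates, and liver and kidney were sequenced from the same mice. The other lung libraries of the series (ZT16-20, in the dark phase) and the kidney and liver libraries at ZT4-8 serve below as comparisons. Whole tissue was homogenised, so fewer cells of a type and less RNA per cell cannot be told apart.

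When oxygen falls, the prolyl hydroxylases that mark the transcription factors HIF-1α and HIF-2α for destruction slow down, the factors accumulate at the protein level, and genes with hypoxia response elements are transcribed more. These include genes of glycolysis, blood vessel growth and vascular tone. Lung is built around a dense capillary bed, and its small arteries constrict in low oxygen, a reflex in which endothelial mediators such as endothelin-1 take part. Breathing low oxygen also releases stress hormones, and glucocorticoids induce a set of genes of their own in lung. Many of the genes concerned also follow the circadian clock.

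Library totals ran from 3322206 to 4191241 counts in air and from 2988213 to 4349076 counts at 6% oxygen, and the groups' means did not differ beyond their spread (n = 4 each; exact two-sided permutation test, p = 0.886). No pair of replicates was identical, and the chi-square per degree of freedom between replicate pairs was 7.25 to 11.1 in air and 5 to 7.14 at 6%. The libraries carried the markers of lung: Sftpc, which encodes surfactant protein C of alveolar type 2 cells, was at 37426, 38358, 41430.4 and 42508 CPM in air libraries A to D and at 33508, 32726, 38669.8 and 32327 CPM in libraries A to D at 6% (CPM, counts scaled for sequencing depth). Air libraries B and C stood apart. The summed level of 17 squamous epithelium genes was 6212 CPM in B and 431.3 CPM in C, against 31.39 to 46.97 CPM in A and D and 29.87 to 38.79 CPM at 6%. The summed level of 25 skeletal muscle genes was 3908 CPM in B and 4261 CPM in C, against 319.4 to 439.2 CPM in A and D and 226.8 to 457.5 CPM at 6%. Krt4, a keratin of stratified epithelium, was at 7.23, 2808, 166 and 1.83 CPM in air A to D, Krt13, its partner keratin, at 3.89, 764, 48.3 and 1.6 CPM, and Acta1, skeletal muscle actin, at 7.78, 1128, 1228 and 38.9 CPM. In libraries A to D at 6%, Acta1 was at 0.693, 1.796, 1.057 and 2.125 CPM, below air A and D too. Counts are therefore given with all libraries and again without air libraries B and C, and genes of these 2 lists are not taken as responses to oxygen.

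Among 12150 genes tested, 1363 were higher and 1380 lower at 6% oxygen (edgeR quasi-likelihood test, Benjamini-Hochberg adjusted p under 0.05), which is 11.2% and 11.4% of genes tested. Such genes are described below as called, or as having risen or fallen. Without air libraries B and C, 796 of 12518 genes were higher and 767 lower, 6.36% and 6.13%. All counts of list members below stand against these shares. Of the 2743 genes called with all libraries, 1485 were called in the same direction without B and C, and none changed sign. In 1614 genes (13.3%) all 4 libraries at 6% lay above all 4 in air, and in 1628 (13.4%) all 4 lay below. Leaving out dark-phase (ZT16-20) air library D as well, whose squamous and muscle sums were 1895 and 4122 CPM, gave 1872 called genes of 12453 (15%). In that fit 4 genes of the skeletal muscle list were still called lower at 6%, and none of the squamous list. The median log2 fold change over all genes tested was -0.0011.

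**Figure D1:**
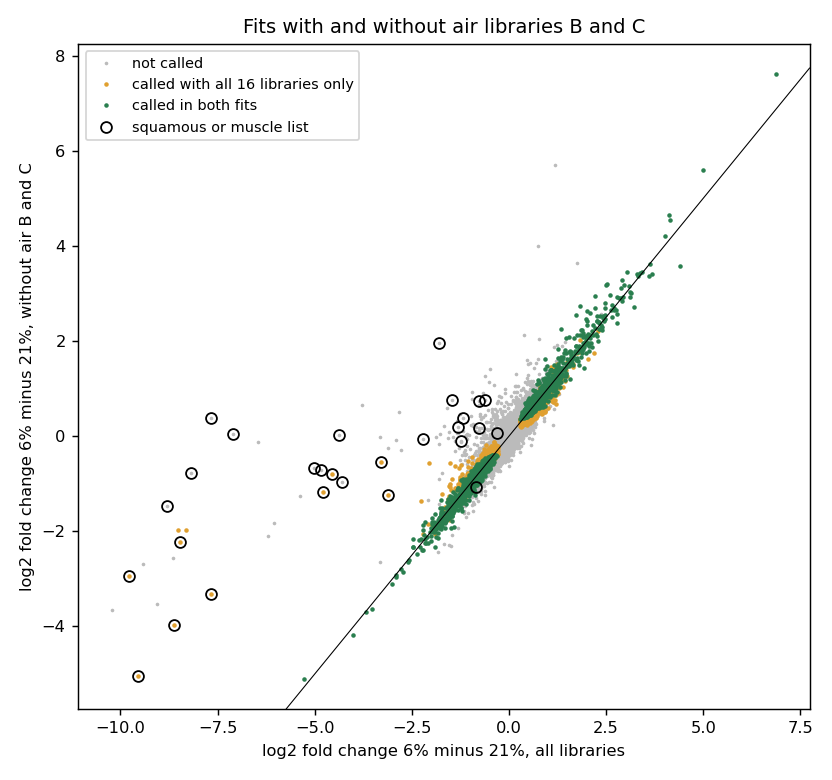
Each point is 1 gene tested, with its log2 fold change (6% minus 21% oxygen) in the fit of all 16 lung libraries on the x axis and in the fit without air libraries B and C on the y axis; circles mark the squamous and skeletal muscle lists and the line marks equal values. Of the 2743 genes called with all libraries, 1485 were also called without B and C, while no gene of the 2 circled lists was. When dark-phase air library D was left out as well, 4 genes of the muscle list were called lower.

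Genes are named by size of change among those that were called with and without B and C, had a mean of at least 10 CPM and did not overlap between groups. The largest rise among them was that of Apold1, an endothelial early response gene (chr6:134981718-134986836 on the plus strand, GENCODE vM21 on mm10). It had 0, 6, 3 and 4 reads in air libraries A to D and 337, 263, 436 and 496 reads in libraries A to D at 6%, or 0, 1.78, 0.743 and 0.916 CPM against 117, 67.5, 115 and 117 CPM. The lowest library at 6% was far above the highest in air. Its log2 fold change was 6.88 ± 0.31 (SE; adjusted p = 3.11e-13), a size that rests on very few reads in air. Below, a value with ± and no unit is a log2 fold change (6% minus 21% oxygen) with its SE.

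Edn1 encodes the precursor of endothelin-1, the vasoconstrictor peptide of endothelium (chr13:42301476-42307990, plus strand). It was at 61.7, 34.8, 41.3 and 51.1 CPM in air and 491, 553, 693 and 582 CPM at 6%. The groups were far apart, and the gene was 12.3-fold higher at 6% (log2 3.62 ± 0.16, adjusted p = 3.96e-14). The largest fall by the same rule was that of Sox18, a transcription factor of vascular endothelium (chr2:181669836-181671640, minus strand), from 189.8, 232, 183 and 235 CPM in air to 16.3, 19.0, 15.1 and 14.9 CPM at 6%. The highest library at 6% was at 19.0 CPM and the lowest in air at 183 CPM, a 12.9-fold fall (log2 -3.69 ± 0.22, adjusted p = 2.80e-10).

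12 further genes made up the 14 largest rises by that rule. The AP-1 members Fosl1 (log2 4.99 ± 0.50) and Fosb (3.69 ± 0.34), the stress factor Atf3 (4.01 ± 0.15), the C/EBP factor Cebpd (3.62 ± 0.25) and the clock-linked repressor Nfil3 (3.32 ± 0.20) rose together with Csrnp1 (3.30 ± 0.18), a nuclear factor of the immediate early class. Rasd1, a small GTPase induced by glucocorticoids, rose by 3.38 ± 0.21, and Cdkn1a, the cell cycle inhibitor p21, by 3.09 ± 0.18. Mpp3, a membrane scaffold protein, Ankrd37, a HIF-1 target, Thbs1, the matrix protein thrombospondin-1, and Akap12, a scaffold for protein kinase A, rose by 4.14 ± 0.27, 2.97 ± 0.16, 2.93 ± 0.21 and 2.91 ± 0.14. Adjusted p over these 12 genes ran from 2.87e-15 to 1.42e-06.

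Sox11, a transcription factor of development, fell with a log2 fold change of -2.36 ± 0.24, Snai1, a repressor of epithelial genes, of -2.11 ± 0.16, Gata3 of -1.77 ± 0.18 and Zfp503 of -1.92 ± 0.16. The clock output factors Hlf (-2.17 ± 0.21) and Dbp (-1.96 ± 0.17) stood in the same group. Rgs3, which shortens G protein signals, fell by 4.01-fold, Edc3, an mRNA decapping factor, by 3.79-fold and Calhm2, a channel subunit, by 4.97-fold. Rtp3 (-2.90 ± 0.24), Grrp1 (-2.28 ± 0.21), Parp11 (-1.90 ± 0.24) and the pseudogene Slc2a4rg-ps (-1.87 ± 0.22) completed the 14.

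**Figure D2:**
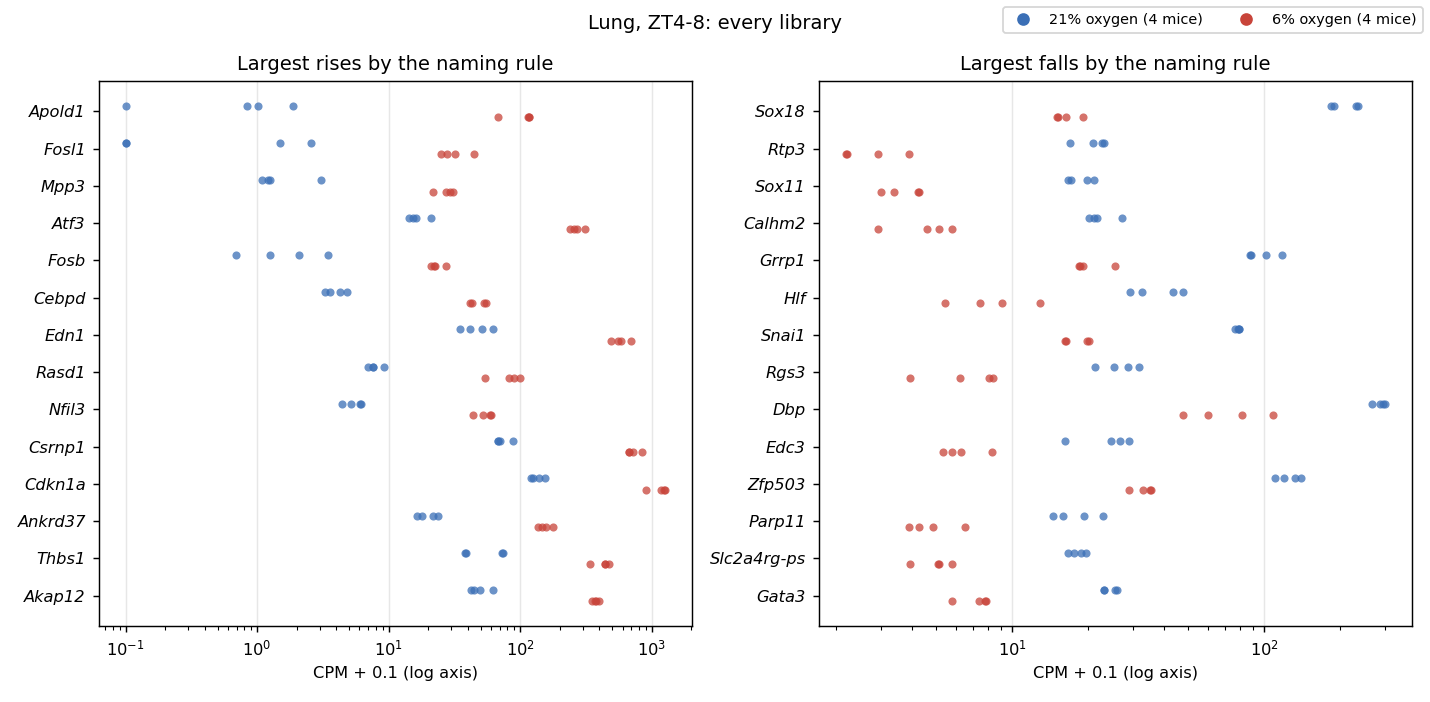
Points are single libraries, 4 in air (blue) and 4 at 6% oxygen (red), on a log axis of CPM plus 0.1, for the 14 largest rises (left) and falls (right) among genes called with and without air libraries B and C. Lack of overlap between the groups was part of the rule that chose these 28 genes. Edn1 is at 491 CPM or more at 6% and at 61.7 CPM or less in air.

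Immediate early genes are transcribed within minutes of a stimulus without new protein synthesis, and most encode transcription factors. Of the 27 on the list, all of which could be tested, 26 rose and 1 fell, with a median log2 fold change of 1.98 against -0.0011 over all genes tested. Without air libraries B and C, 25 rose and none fell. Atf3 was at 14.2, 16.1, 21.0 and 15.1 CPM in air and 269, 257, 237 and 312 CPM at 6%. Maff, a bZIP factor of the MAF family, went from 50.9, 43.4, 56.2 and 52.9 CPM to 331, 294, 381 and 331 CPM. Klf4, a Krüppel-like factor of endothelium and epithelium, went from 470.3, 459.8, 419 and 458 CPM to 1675, 1617, 1869 and 1634 CPM. The 2 groups were separate for all 3 genes, and no library at 6% stood out. Csrnp1 was at 73.7 ± 9.73 CPM in air and 727 ± 76.6 CPM at 6% (SD, n = 4 each). The 1 member that fell was Ier5 (-0.76 ± 0.28, adjusted p = 0.0484), which also lost its call on leaving out 6 of the 8 libraries singly (adjusted p up to 0.19) and without B and C. Fos itself, named outside the naming rule, rose from 32.1 to 129 CPM (2.00 ± 0.30, adjusted p = 2.20e-04).

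Many immediate early genes lie downstream of MAP kinases, and the dual-specificity phosphatases (DUSP) and Sprouty proteins are feedback inhibitors of the same cascade. Of 17 genes on that list, 15 were tested, and 9 rose and 1 fell, with the same counts without air libraries B and C and a median of 1.32. Dusp6, which dephosphorylates ERK, went from 56.1, 45.8, 50.8 and 48.3 CPM in air to 181, 178, 202 and 177 CPM at 6%. Spry4 went from 26.1, 22, 28.7 and 20.8 CPM to 132, 108, 151 and 156 CPM. Both genes were higher in each library at 6% than in any library in air. Dusp16 and Dusp2, further phosphatases of the family, rose by 1.32 ± 0.11 and 2.46 ± 0.24, and Dusp7 was the 1 member that fell (-0.57 ± 0.14). Of 11 Krüppel-like factors, 8 rose and none fell, with and without B and C. Klf6 (1.57 ± 0.1), Klf7 (1.51 ± 0.12) and Klf9 (1.08 ± 0.10) followed Klf4 in strength of evidence.

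HIF targets are the genes most directly tied to oxygen sensing. Of 37 on the list, 32 were tested, and 14 rose, 1 fell and 17 were not called, with a median of 0.35. Without air libraries B and C, 12 rose and 1 fell. Beside Edn1, a strong change was that of Ankrd37, which was at 16.4, 23.5, 21.5 and 17.9 CPM in air and 178, 148, 158 and 136 CPM at 6%. Bhlhe40, a transcriptional repressor of the clock, went from 43.9, 42.5, 28.7 and 37.8 CPM to 199, 187, 198 and 193 CPM. Both were separate between the groups. Hilpda, which coats lipid droplets and blocks their breakdown, rose 2.91-fold (1.54 ± 0.14), and Adm, the vasodilator adrenomedullin, rose from 3.35 to 16.3 CPM (2.28 ± 0.21). Bnip3 (0.97 ± 0.13), a mitophagy receptor, and Ddit4 (2.00 ± 0.26), an inhibitor of mTORC1, rose as well.

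Vegfa, the classical HIF target of blood vessel growth, changed little. It was at 831, 781, 707 and 838 CPM in air and 989.6, 969.9, 1026 and 915 CPM at 6%, a 1.24-fold difference (0.30 ± 0.11, adjusted p = 0.04). That call was lost on leaving out air B, air C or any 1 of the libraries at 6%, and without B and C together (adjusted p = 0.286). Angptl4, an inhibitor of lipoprotein lipase, was the member that fell, from 196, 184, 188 and 179 CPM to 123, 98.5, 98.1 and 118 CPM (-0.77 ± 0.13, adjusted p = 8.11e-05). All 4 libraries at 6% lay below the 4 in air.

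Of 11 genes tested for the subunits, hydroxylases and regulators of the HIF system itself, 2 rose and none fell at the RNA level. Of all genes tested, 11.2% rose and 11.4% fell. Hif1a, the HIF-1α subunit, was at 15.8, 11, 9.66 and 11 CPM in air and 17.3, 18.5, 23.8 and 16.5 CPM at 6% (0.68 ± 0.20, adjusted p = 0.0164). It lost its call without air library C, without 6% library C, and without air libraries B and C (adjusted p = 0.193). Epas1, which encodes HIF-2α and is strongly expressed in lung endothelium, was at 3261 ± 95.5 CPM in air and 3139 ± 196 CPM at 6% (SD, n = 4 each; -0.055 ± 0.10, adjusted p = 0.748). Cited4, a transcriptional coregulator, rose by 0.69 ± 0.19 (adjusted p = 0.00913), a call lost without 6% library D. Arnt, the shared partner subunit, and Egln1, the main prolyl hydroxylase, gave -0.28 ± 0.14 and 0.25 ± 0.11 and were not called.

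Glucose handling moved in part. Of 22 genes of uptake, glycolysis and lactate export, 15 were tested, and 5 rose and 1 fell, with 4 and 1 without air libraries B and C. Over all genes tested, 11.2% rose and 11.4% fell, and 6.36% and 6.13% without B and C. Hk2, a hexokinase, went from 13.1, 13.4, 19.1 and 11.9 CPM to 44.3, 45.4, 37.5 and 44.9 CPM (1.58 ± 0.20). Slc16a3, the lactate exporter MCT4, rose from 31.0 to 64.1 CPM (1.05 ± 0.16), and Slc2a1, the glucose transporter GLUT1, from 34.6 to 62.0 CPM (0.84 ± 0.14). Eno2, the neuronal enolase, fell from 3.47 to 1.01 CPM (-1.74 ± 0.38, adjusted p = 0.00178). The median over the list was 0.28.

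Promoter sequences of some of these genes are shown because HIF acts through a short core sequence and immediate early genes often carry a cAMP response element. The windows are RefSeq's on GRCm38.p6, from 250 bases before to 50 bases after each start site, searched on both strands for ACGTG and GCGTG (cores of the hypoxia response element), CACGTG (E-box, which contains ACGTG) and TGACGTCA (cAMP response element). A window was in the table for 9 of the 14 HIF targets that rose, and all 9 held either HIF core in at least 1 window, which 66.5% of the 9274 genes tested with a window also did. ACGTG was in 8 of the 9, against 28.5% of genes tested. Of the 20 immediate early genes that rose and had a window, 3 (15%) held TGACGTCA, against 3.48% of genes tested, and 5 (25%) held CACGTG, against 11.6%. These 20 also held the HIF cores, either core in 17 (85%) and ACGTG in 9 (45%). Over all 32851 windows in the table, 43.8% held either HIF core, 7.15% the E-box and 1.79% the cAMP response element. A match of letters is a description of the sequence only. In the stretches below, read 5′ to 3′ on the gene's strand and chosen after their matches were seen, capitals mark each match on either strand.
Ankrd37 (chr8:45999976-46000035, minus strand): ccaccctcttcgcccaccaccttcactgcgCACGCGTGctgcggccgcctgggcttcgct
Bnip3 (chr7:138909585-138909644, minus strand): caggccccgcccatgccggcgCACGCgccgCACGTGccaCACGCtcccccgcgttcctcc
Adm (chr7:110627555-110627614, plus strand): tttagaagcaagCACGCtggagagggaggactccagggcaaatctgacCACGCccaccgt
Ddit4 (chr10:59951861-59951920, minus strand): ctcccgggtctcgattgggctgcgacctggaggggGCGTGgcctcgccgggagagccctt
Dusp1 (chr17:26508578-26508637, minus strand): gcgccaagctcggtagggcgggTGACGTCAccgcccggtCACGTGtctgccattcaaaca
Btg2 (chr1:134079292-134079351, minus strand): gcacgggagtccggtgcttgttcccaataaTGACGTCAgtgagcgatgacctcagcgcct
The first 4 are HIF targets and the last 2 immediate early genes: Dusp1 encodes a MAP kinase phosphatase and rose 5.27-fold (2.40 ± 0.26), and Btg2, an antiproliferative factor, rose 1.79-fold (0.84 ± 0.14).

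**Figure D3:**
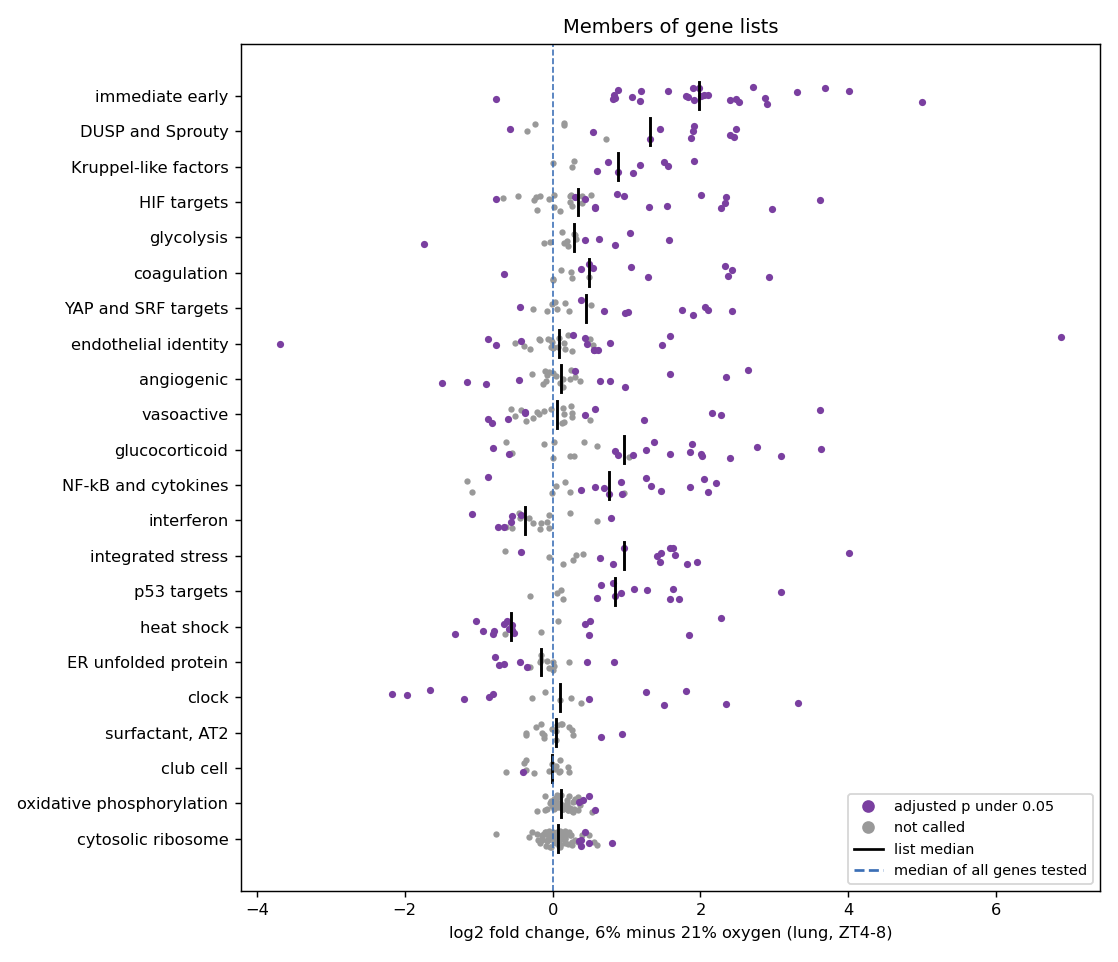
Each point is 1 tested member of the list named on the y axis, at its log2 fold change (6% minus 21% oxygen); purple points were called, black bars are list medians and the dashed line is the median of all genes tested. The immediate early list has its median at 1.98, the heat shock list at -0.57 and the cytosolic ribosome list at 0.074.

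Apold1 and Sox18, the largest rise and fall by the naming rule, are both on the endothelial list, of which 19 members were not called. Of 33 endothelial identity genes, all tested, 10 rose and 4 fell, with 6 and 3 without air libraries B and C, and the median was 0.085. Over all genes tested, 11.2% rose and 11.4% fell, and 6.36% and 6.13% without B and C. Beside Apold1 and Sox18, Cldn5, the tight junction claudin of endothelium, went from 543, 689, 817 and 752 CPM in air to 2261, 1912, 2117 and 2108 CPM at 6%. S1pr1, the sphingosine-1-phosphate receptor that tightens the barrier, went from 219, 184, 245 and 227 CPM to 509, 704, 665 and 559 CPM. Both were higher in every library at 6% than in any in air (1.58 ± 0.12 and 1.48 ± 0.13). The summed level of the list was 9342 to 10130 CPM in air and 11180 to 12460 CPM at 6%, without overlap, and the mean of Cldn5 alone went from 700.3 to 2099.5 CPM.

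Genes of vessel growth moved both ways. Of 26 angiogenic genes tested, 7 rose and 4 fell, with 5 and 3 without air libraries B and C. Over all genes tested, 11.2% rose and 11.4% fell, and 6.36% and 6.13% without B and C. Rcan1, a feedback inhibitor of calcineurin, went from 22.5, 28.3, 24.3 and 19.0 CPM to 129, 93.9, 126 and 127 CPM, and the library lowest at 6% was B. Ackr3, a scavenging receptor for CXCL12 and adrenomedullin, went from 27.0, 30.3, 33.9 and 29.6 CPM to 238, 188, 175 and 158 CPM. Dll4, the Notch ligand of arterial and tip cells, fell from 74.2, 97.6, 102 and 94.2 CPM to 31.2, 32.1, 30.4 and 36.6 CPM. None of the 3 overlapped between groups, and their log2 fold changes were 2.34 ± 0.15, 2.65 ± 0.18 and -1.49 ± 0.13. Unc5b, a netrin receptor of vessels, rose by 1.59 ± 0.15.

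Regulators of vascular tone were led by Edn1 and Adm, which act in opposite senses on vessel diameter. Of 28 vasoactive genes tested, 6 rose and 5 fell, with 5 and 3 without air libraries B and C. Over all genes tested, 11.2% rose and 11.4% fell, and 6.36% and 6.13% without B and C. Nt5e, the ectoenzyme CD73 that makes adenosine, rose from 50.5 ± 9.85 to 119 ± 10.5 CPM (1.24 ± 0.12), and Hpgd, which degrades prostaglandins, fell from 871 ± 126 to 494 ± 65.6 CPM (-0.82 ± 0.12; SD, n = 4 each).

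The list of coagulation trigger and fibrinolysis genes mixes opposite actions on clots, so its count gives no direction for clotting. Of 16 tested, 9 rose and 1 fell, with 7 and 1 without air libraries B and C and a median of 0.50. F3, tissue factor, the trigger of coagulation, went from 58.1, 63.6, 61.2 and 59.6 CPM in air to 358, 273, 326 and 352 CPM at 6%. Plaur, the urokinase receptor, went from 75.0, 75.2, 63.4 and 71.9 CPM to 420.5, 302, 371 and 381 CPM. Thrombospondin-1 (Thbs1) went from 73.7, 37.8, 72.8 and 38.9 CPM to 342, 438, 474 and 444 CPM. The groups were separate for all 3. Thbd, thrombomodulin, the endothelial cofactor of protein C activation, was the member that fell (867 ± 52.4 to 551 ± 76.2 CPM, -0.65 ± 0.13, adjusted p = 5.78e-04).

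YAP and SRF are regulators of transcription that respond to mechanical force and actin. Of 18 of their targets tested, 9 rose and 1 fell (Amotl1, -0.44 ± 0.15), with 8 and none without air libraries B and C. The Amotl1 call was also lost on leaving out air A, air B, 6% A or 6% C alone. Srf itself went from 32.5, 35.4, 45.8 and 31.8 CPM to 148, 118, 131 and 148 CPM, Ctgf, a matricellular protein, rose by 1.75 ± 0.14 and Acta2, smooth muscle actin, by 2.06 ± 0.20. Of 25 TGF-β and BMP genes tested, 4 were higher and 3 lower, against 11.2% and 11.4% of all genes tested. Without air libraries B and C, 4 were higher and 2 lower, against 6.36% and 6.13%. Id3, a BMP-induced inhibitor of transcription factors, fell from 854, 1010.1, 850.2 and 1028 CPM to 389, 399, 365 and 354 CPM (-1.31 ± 0.11), and Ltbp1 (1.76 ± 0.38), Tgfbr2 (0.57 ± 0.11) and Tgfb3 (0.59 ± 0.14) rose.

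Glucocorticoid-responsive genes rose as a large share of their list: of 26, all tested, 14 rose and 2 fell, and 15 and 2 did so without air libraries B and C. The list's median was 0.96. Nfkbia, the NF-κB inhibitor IκBα, went from 402, 381, 429 and 409 CPM in air to 1350.2, 1719, 1444 and 1377 CPM at 6%. Cdkn1a went from 139, 153, 125 and 121 CPM to 1273, 900.4, 1185 and 1239 CPM. Sgk1, a kinase that raises epithelial sodium transport, went from 167, 131, 166 and 178 CPM to 589.5, 608, 779.8 and 631 CPM. In each, the lowest library at 6% was above the highest in air. Tsc22d3 and Fkbp5, 2 widely used glucocorticoid markers named here outside the naming rule, gave 0.29 ± 0.15 and 0.43 ± 0.16 and were not called (adjusted p = 0.16 and 0.0505). The metal-binding metallothioneins Mt2 (1.89 ± 0.25) and Mt1 (1.37 ± 0.24) rose, and so did the zinc importer Slc39a14 (0.73 ± 0.18).

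Of 21 NF-κB targets and cytokines tested, 13 rose and 1 fell, with 9 and 1 without air libraries B and C. Tnfaip3, the ubiquitin-editing inhibitor A20, rose from 24.7 to 106 CPM (2.10 ± 0.16), Socs3, an inhibitor of cytokine signalling, from 81.9 to 197 CPM (1.26 ± 0.11), and the cytokine Lif from 3.37 to 14.1 CPM (2.05 ± 0.22). Irf1, an interferon-induced transcription factor, fell from 246 to 134 CPM (-0.87 ± 0.14, adjusted p = 3.76e-05).

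Of 20 interferon-induced genes tested, 1 rose and 6 fell, but without air libraries B and C only 1 rose and 1 fell. Over all genes tested, 11.2% rose and 11.4% fell, and 6.36% and 6.13% without B and C. Oasl2, an antiviral protein, was the fall that remained (37.8, 44.0, 33.9 and 27.7 CPM in air, 17.7, 15.4, 15.9 and 18.4 CPM at 6%, -1.09 ± 0.23), and the chemokine Cxcl10 was the rise (0.79 ± 0.21). Stat2 (-0.74 ± 0.18) and Ifit3 (-0.65 ± 0.17) lost their calls without B and C.

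The integrated stress response, in which the factor ATF4 is translated when cells lack amino acids or are otherwise stressed, had 12 of 19 tested members higher and 1 lower, and 11 and none without air libraries B and C. Atf4 went from 303, 313, 314 and 296 CPM in air to 908, 728, 934 and 816 CPM at 6%. Ppp1r15a, the phosphatase subunit that ends the response, went from 58.1, 61.6, 61.4 and 60.3 CPM to 229, 161, 179 and 189 CPM. Both were separate between groups (1.47 ± 0.13 and 1.65 ± 0.14), and Slc38a2, an amino acid transporter, rose by 0.96 ± 0.13. Ddit3, which encodes CHOP, was the member that fell (-0.43 ± 0.13, adjusted p = 0.014), a call lost without B and C (adjusted p = 0.109).

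Among 15 p53 targets tested, 11 rose and none fell, and 9 rose without air libraries B and C. Beside Cdkn1a these were led by Sesn1 (61.7 ± 5.39 to 149.6 ± 13.5 CPM, SD, n = 4 each), a sestrin that restrains mTORC1, the kinase Plk2 (1.71 ± 0.16) and the pro-apoptotic Bbc3 (0.81 ± 0.13). Several of these genes are on more than 1 list, since Cdkn1a also answers to glucocorticoids and Atf3 is both an immediate early and a stress response gene.

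Most of the heat shock genes called went the other way. Of 20 heat shock genes tested, 11 fell and 5 rose, with a median of -0.57. Without air libraries B and C, 7 fell and 1 rose. Hsph1 went from 129.8, 99.0, 197 and 91.9 CPM in air to 52.0, 46.4, 54.2 and 54.1 CPM at 6%. Hsp90ab1, the constitutive HSP90, went from 1364, 1412, 2049 and 1214 CPM to 892, 806, 874 and 866 CPM. Stip1, the cochaperone that joins HSP70 to HSP90, went from 88.9, 95.5, 133 and 83.2 CPM to 63.7, 40.3, 48.6 and 42.7 CPM, and air library C was the highest library for all 3. Hspe1, the mitochondrial HSP10, fell as well (-0.94 ± 0.14). The summed level of the list was 4779 to 5027 CPM in air A and D, 5454 CPM in B and 6788 CPM in C, and 3655 to 4074 CPM at 6%, so every library at 6% lay below all 4 in air, A and D included.

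The inducible Hspa1a was 1 of the 5 heat shock genes that rose. It was at 17.8, 15.2, 21.8 and 23.6 CPM in air and 118, 94.9, 83.5 and 87.6 CPM at 6% (2.28 ± 0.59, adjusted p = 0.014). Without B and C it was 2.21 ± 0.82, which was not called (adjusted p = 0.118). Hspa1a and Hspa1b are near-identical copies, so reads may be shared between them. Hspa1b gave 1.84 ± 0.60 and lost its call on leaving out any 1 of the 8 libraries. Of 18 genes of the endoplasmic reticulum's unfolded protein response tested, 2 rose and 5 fell, with 1 and 2 without B and C. Over all genes tested, 11.2% rose and 11.4% fell, and 6.36% and 6.13% without B and C. Herpud1 rose (0.83 ± 0.11) while Dnajb9 (-0.79 ± 0.14) and Edem1 (-0.66 ± 0.16) fell.

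Nuclear and RNA-processing transcripts moved in opposite directions. Of 15 tested, 7 rose and 4 fell, against 11.2% and 11.4% of all genes tested. Without air libraries B and C, 6 rose and 4 fell, against 6.36% and 6.13%. The paraspeckle RNA Neat1 fell from 1005, 1092, 1024 and 955 CPM in air to 329, 300.1, 274 and 294 CPM at 6%. The speckle RNA Malat1 rose from 37.0, 29.4, 43.6 and 40.1 CPM to 95.3, 127, 93.8 and 87.4 CPM. Rsrp1 fell from 404, 442, 377 and 485 CPM to 134, 133, 131 and 132 CPM. In all 3 the groups were separate, with log2 fold changes of -1.77 ± 0.11, 1.42 ± 0.18 and -1.69 ± 0.11. The splicing factor Srsf5 rose 2.12-fold and the cold-inducible RNA-binding protein Cirbp rose 3.36-fold (1.75 ± 0.21), from 43.4, 41.6, 47.5 and 41.2 CPM to 179, 121, 161 and 125 CPM. Of 16 antioxidant genes tested, 4 rose and 1 fell, against 11.2% and 11.4% of all genes tested. They were led by Txnrd1 (0.87 ± 0.13), a selenoprotein that regenerates thioredoxin, and Osgin1 (1.34 ± 0.20), an NRF2 target.

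The circadian clock is a loop in which BMAL1 (Arntl) and CLOCK or NPAS2 drive Per, Cry and Nr1d genes, whose products repress them, and which sets the PAR-bZIP factors Dbp, Tef and Hlf and their antagonist Nfil3. Of 17 tested clock genes, 6 rose and 6 fell, with 4 and 5 without air libraries B and C. Dbp was at 287, 302, 267 and 296 CPM in air and 108, 81.8, 59.7 and 47.5 CPM at 6%. Hlf was at 32.5, 47.3, 29.2 and 43.3 CPM and 12.8, 8.98, 5.29 and 7.32 CPM. Nfil3 was at 6.11, 5.06, 5.94 and 4.35 CPM and 43.6, 51.8, 59.5 and 59.3 CPM, so the 3 antagonistic genes lay on opposite sides, each without overlap between groups.

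Among the core genes, Arntl rose from 3.51 ± 0.966 to 12.3 ± 4.05 CPM (SD, n = 4 each; 1.80 ± 0.29, adjusted p = 5.20e-05) and Per1 from 149 ± 26.5 to 359 ± 49.3 CPM (1.27 ± 0.23). Cry1 fell (-0.81 ± 0.23, adjusted p = 0.0127) and gave -0.86 ± 0.29 without B and C (adjusted p = 0.0583). Per2 (-0.10 ± 0.17) and Nr1d1 (0.24 ± 0.13) were not called. 

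The same exposure in the dark phase (ZT16-20, 8 further lung libraries in the same fit) gave 2568 called genes, 21.1% of genes tested. Of the 2743 genes called at ZT4-8, 1606 (58.5%) were called in the same direction at ZT16-20, which is 62.5% of the second set, and 14 in the opposite direction. The correlation of log2 fold changes across the 12150 genes was 0.773 (Pearson), where genes are not independent. Among these genes are the squamous and muscle lists, with values such as -8.63 at ZT4-8 and -6.81 at ZT16-20 for Acta1. No correlation was computed without them. A difference between the phases was called for 31 genes, 0.255% of genes tested, of which 8 are on the clock list. That count was 16 without ZT4-8 air libraries B and C, 19 without these and ZT16-20 air library D, 19 without ZT4-8 6% library D and 66 with DESeq2. Dbp fell at ZT4-8 and rose at ZT16-20: its response was -1.96 ± 0.17 in the light phase and 0.72 ± 0.21 in the dark phase, a difference of 2.68 ± 0.27 (adjusted p = 1.22e-05). Hlf differed by 1.99 ± 0.29 (adjusted p = 7.49e-04), Per3 by 1.82 ± 0.30 (adjusted p = 0.00315) and Tef by 1.43 ± 0.24 (adjusted p = 0.00402), and all 3 fell at ZT4-8 and were not called at ZT16-20.

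Arntl was raised at ZT4-8 and lowered at ZT16-20 (-1.28 ± 0.24), a difference of -3.09 ± 0.37 (adjusted p = 5.69e-05), as was Npas2, its partner gene (1.5 ± 0.43 and -2.30 ± 0.41, adjusted p of the difference = 0.00137), whose value at ZT4-8 was 1.55 ± 0.57 without B and C (adjusted p = 0.0752). The extracellular protein gene Spon2 did the same (1.99 ± 0.29 and -1.19 ± 0.31, adjusted p of the difference = 9.10e-04). Rasl11a, a small GTPase of the nucleolus, was at 22.8, 20.5, 24.8 and 24.7 CPM in air and 39.5, 39.8, 48.1 and 43.4 CPM at 6% in the light phase (0.88 ± 0.12), and fell in the dark phase (-0.76 ± 0.11, adjusted p of the difference = 7.14e-06). Tspan4, a tetraspanin, was the reverse, with -0.80 ± 0.14 and 0.90 ± 0.15. Cys1, a cilium-associated gene, fell in the light phase (-1.44 ± 0.14) and was at 0.025 ± 0.13 in the dark phase. Cebpd and Nfil3 rose in both phases and by more at ZT4-8, by -1.95 ± 0.34 and -1.81 ± 0.27 as dark minus light. The Cebpd and Nr1d1 differences lost their calls without the 3 air libraries (adjusted p = 0.176 and 0.146). Per1 and Edn1 were not called as different between phases (adjusted p = 0.971 and 0.0612).

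**Figure D4:**
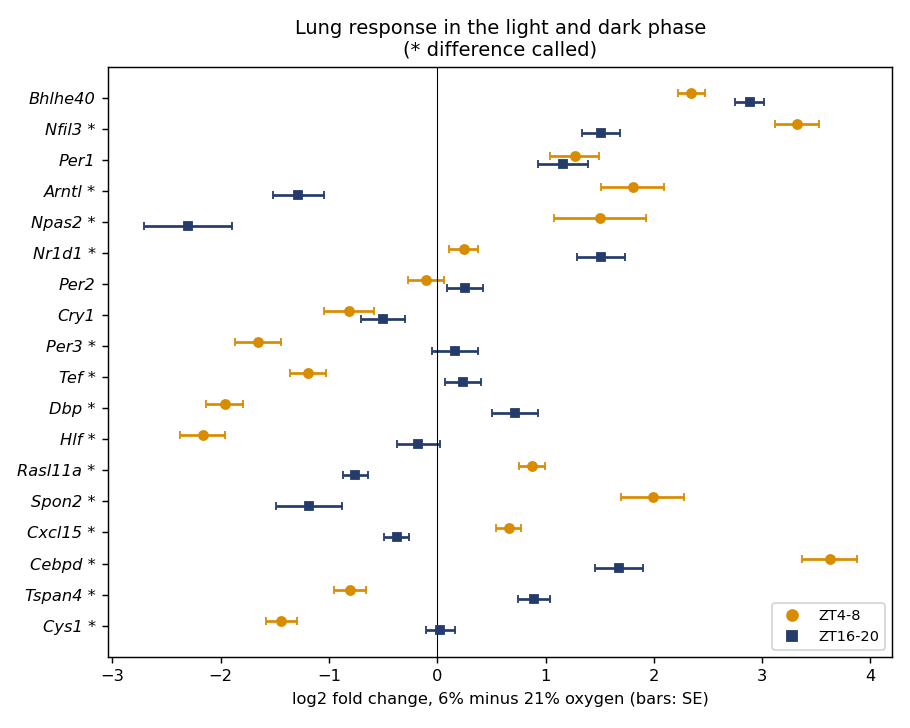
Log2 fold change (6% minus 21% oxygen) at ZT4-8 (orange circles) and ZT16-20 (blue squares) for clock and phase-differing genes, with bars of 1 SE; an asterisk marks a called difference between phases. Arntl, Npas2, Spon2 and Rasl11a lie on opposite sides of 0, while Bhlhe40 and Per1 rose in both phases.

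Calls in the lists of epithelial and immune cell genes stand against 22.6% of all genes tested. Of 18 tested genes of surfactant and alveolar type 2 cells, 2 rose and none fell, with a median of 0.049, and Sftpc gave -0.22 ± 0.13 (adjusted p = 0.259). Without air libraries B and C, 3 rose and 1 fell. The risers with all libraries were Acoxl (0.94 ± 0.14) and the chemokine Cxcl15 (1364 ± 229 to 2153 ± 173 CPM, 0.66 ± 0.12). Cxcl15 gave -0.37 ± 0.12 at ZT16-20 (adjusted p of the phase difference = 0.0022). Of 18 alveolar type 1 genes tested, 4 rose and 1 fell, but 1 and 1 without air libraries B and C. Gprc5a, an orphan receptor of alveolar cells, rose from 842, 553, 529 and 509 CPM to 1425, 929.7, 974 and 1266 CPM (0.92 ± 0.18), with air library A the highest in air. That call was lost without the 3 air libraries (adjusted p = 0.0638). Of 15 club cell genes, 1 fell, the carbonyl reductase Cbr2 (-0.40 ± 0.10, adjusted p = 0.00596). Of 19 ciliated cell genes, 1 rose, the tubulin Tubb4b (0.41 ± 0.11).

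Of 20 macrophage genes tested, 1 was lower, and none without air libraries B and C. Of 16 neutrophil genes, 4 rose and 2 fell, with 4 and 1 without B and C. The risers included Trem1 (1.5 ± 0.24) and Ngp, a granule protein with 3, 1, 2 and 6 reads in air and 32, 30, 16 and 31 reads at 6%. The falls were those of the formyl peptide receptor Fpr2 (-1.53 ± 0.41; -1.41 ± 0.50 without B and C, adjusted p = 0.0697) and the lipase inhibitor G0s2 (-0.87 ± 0.20). The summed level of the neutrophil list was 628.7 to 856.3 CPM in air and 560.1 to 907.6 CPM at 6%, so the groups overlapped. Of 16 lymphocyte genes, 3 rose, among them Il2rb (1.17 ± 0.22) and the granzyme Gzmb (1.37 ± 0.27), against 11.2% of all genes tested that were higher. Of 23 fibroblast and matrix genes, 3 rose and 1 fell, but 1 and 1 without B and C. The fall was that of Tcf21, a transcription factor of lung fibroblasts, from 233, 239, 231 and 251 CPM to 83.5, 116, 77.4 and 79.6 CPM (-1.42 ± 0.13, adjusted p = 1.25e-08).

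Calls in the lists that follow stand against 22.6% of all genes tested, and 12.5% without air libraries B and C. Of 50 nuclear genes of oxidative phosphorylation, 4 rose and none fell, and none was called without air libraries B and C, where the list's median was 0.18. Of 70 cytosolic ribosomal protein genes tested, 6 rose, and 2 without B and C. Of 23 cell cycle genes, 1 was lower, and none without B and C. Of 21 cholesterol synthesis genes, 4 rose, and 2 without B and C, led by Pmvk (1.32 ± 0.15), an enzyme of the mevalonate pathway. Junction and ion transport genes had 8 of 21 tested higher and none lower, and 4 higher without B and C, led by Cldn5.

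The lung response was set beside that of kidney and liver taken from the same mice, in a joint fit of 24 ZT4-8 libraries over 10529 genes tested. Only genes listed for all 3 tissues entered it. Fosl1, Mpp3, Thbs1, Sox11, Grrp1 and Gata3, which changed in lung, are among those not tested in it. Called genes numbered 1951 in lung, 507 in kidney and 1123 in liver, which is 18.5%, 4.82% and 10.7% of genes tested. Of the lung calls, 277 (14.2%) were called in the same direction in kidney, 54.6% of the kidney calls, and 392 (20.1%) in liver, 34.9% of the liver calls. A different response was called between lung and kidney for 322 genes (3.06%), with a more positive lung value in 203 (1.93%), and between lung and liver for 707 genes (6.71%), with a more positive lung value in 367 (3.49%). Without air libraries B and C these counts were 164 and 414, and without 6% library C the lung-kidney count was 206.

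Genes that rose in lung and not in kidney included Dusp6 (1.90 ± 0.14 in lung and -0.98 ± 0.18 in kidney, adjusted p of the difference = 1.22e-09) and Ctgf (1.78 ± 0.18 and -1.02 ± 0.19), each of which fell in kidney. For Rcan1 the values were 2.37 ± 0.19 in lung and -0.32 ± 0.19 in kidney. Errfi1, a feedback inhibitor of the EGF receptor, gave 2.79 ± 0.20 and 0.16 ± 0.19, and Ackr3 and Akap12 gave 2.68 ± 0.19 and 2.94 ± 0.17 in lung against 0.28 ± 0.18 and 0.25 ± 0.26 in kidney. Arrdc2, an arrestin-like gene, was the reverse, at 0.033 ± 0.20 in lung and 2.85 ± 0.22 in kidney.

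Against liver, most genes with the smallest adjusted p of a difference rose more in liver. Efna1, an ephrin ligand, fell in lung and rose in liver (-1.71 ± 0.21 and 3.89 ± 0.22, adjusted p of the difference = 1.29e-13). Cited2, a HIF-induced inhibitor of HIF, and Gadd45b, a stress-induced gene, were at -0.22 ± 0.14 and -0.094 ± 0.20 in lung and 3.33 ± 0.16 and 5.13 ± 0.26 in liver. Hilpda and Gdf15, a stress-induced cytokine, rose in both, by 1.57 and 1.61 in lung and by 5.49 and 5.75 in liver. Litaf, a gene of endosomal sorting, rose in lung (1.83 ± 0.12) and was at -0.021 ± 0.12 in liver. Edn1 was at 3.64 ± 0.18 in lung and 2.06 ± 0.56 in liver, and Sox18 at -3.66 ± 0.23 and -2.22 ± 0.39; neither difference from liver was called (adjusted p = 0.212 and 0.0903).

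**Figure D5:**
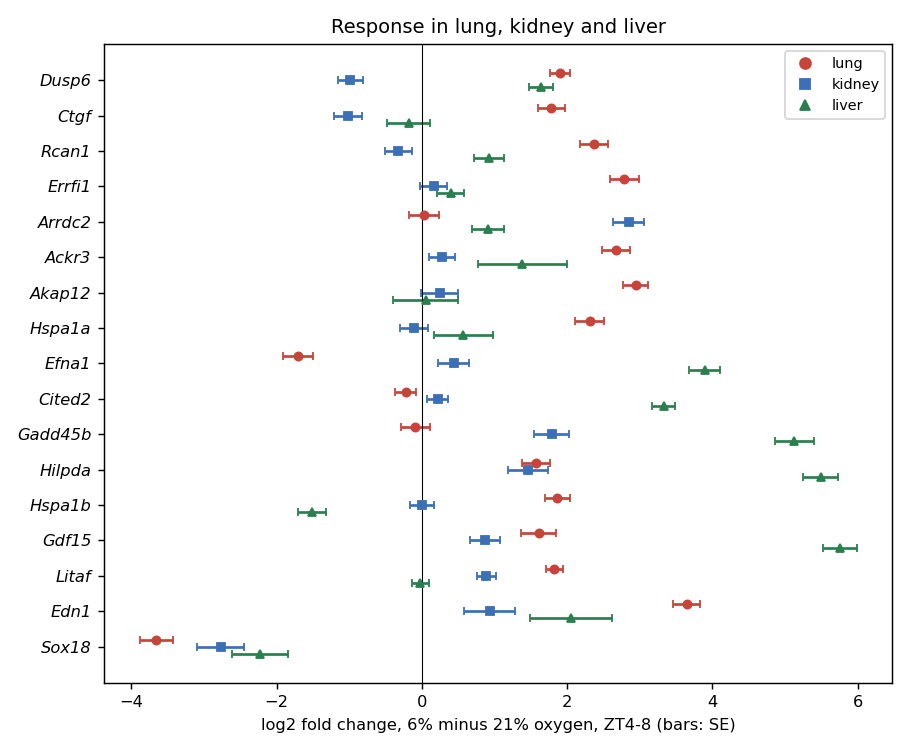
Log2 fold change (6% minus 21% oxygen, ZT4-8) in lung (red circles), kidney (blue squares) and liver (green triangles) from the joint fit, with bars of 1 SE, for genes among those with the smallest adjusted p of a difference from lung and for Edn1 and Sox18. Hilpda is at 5.49 in liver against 1.57 in lung, and Efna1 lies on opposite sides of 0 in these tissues.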

How the data were processed

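RNA of lung, and of kidney and liver for comparison, was sequenced by the study's authors. Per the labels' protocols, cDNA of indexed samples was pooled and amplified by in-vitro transcription before library construction. The authors deposited raw counts per gene, per the file headers, and the tools listed in the submitters' processing notes are STAR, HTSeq, cutadapt and bcl2fastq, with the build mm10 and no versions; strand use is not given in the sources used here, so overlapping and antisense genes cannot be told apart. The lung table lists 14231 genes, and 31 columns of other tables were not used.

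Counts were analysed with edgeR 4.0.16 in R 4.3.3 (filterByExpr with minimum count 10 and total 15, TMM scaling, robust quasi-likelihood F test). CPM values use TMM-scaled library sizes. The fit held 16 lung libraries in 4 groups, with 12 residual degrees of freedom, and the phase difference was a contrast of it; the tissue differences came from a joint fit of 24 libraries. The SE was taken from the log2 fold change and the F statistic. Genes were called at a Benjamini-Hochberg adjusted p under 0.05 over all genes tested. The fit was tested on simulated data, where 71% of genes with a log2 change of 1 and 96% of those with 2 were called and 5.11% of calls were false. Only 100 of 12119 genes were changed at each size, a smaller share than the 22.6% called here. No simulated library was given extra squamous or muscle transcripts, so these shares need not hold for the real libraries.

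Named genes were the 14 largest rises and falls called with and without air libraries B and C, with at least 10 CPM and no overlap; up to 4 members of each list by smallest p; 15 genes always named, among them Edn1, Vegfa and Dbp; and up to 8 genes for each difference of responses. Some genes that the rule selects are not reported here. Genes named outside this rule were chosen after their values were seen, for example as the few members of a list that changed. The members, the gene lists and the removal of air libraries B and C were chosen with earlier results of these data known. Alternatives were another scaling, no filter, DESeq2 1.42.0, a replicate block, the 8 libraries alone and leaving libraries out.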

Additional observations from a re-analysis of the deposited data

Results flagged for a closer look

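In a group of 4 libraries, 1 library was taken as far from the others where its gap to the nearest one, as a share of the group's range, exceeded Dixon's critical value, which chance gives in about 1 of 20 groups; this held for 19 of 314 groups tested (6.05%). In air, library B was high for Krt4 (2808 CPM), Krt13 (764 CPM), Mpp3 (2.97 CPM) and the summed squamous list (6212 CPM), and low for Osgin1 (12.2 CPM). Air library C was high for Mt1 (649 CPM), Csrnp1 (88.1 CPM) and Ier5 (14.4 CPM), and air library A for Gprc5a (842 CPM). At 6%, library B was low for Apold1 (67.5 CPM), Rcan1 (93.9 CPM) and Litaf (337 CPM) and high for Grrp1 (25.4 CPM) and Tcf21 (116 CPM). Library A at 6% was low for Plk2 (49.2 CPM) and Fos (106 CPM) and high for Ddit3 (56.5 CPM), and library C was low for Hk2 (37.5 CPM) and for the summed squamous list (29.87 CPM).

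Among the 31 genes whose responses differed between phases, those named in the text, with dark minus light on the log2 scale, were Arntl (-3.09), Npas2 (-3.80), Spon2 (-3.18), Cebpd (-1.95), Nfil3 (-1.81), Rasl11a (-1.63), Acoxl (-1.21) and Cxcl15 (-1.03), which were lower in the dark phase. Those higher were Dbp (2.68), Hlf (1.99), Per3 (1.82), Tspan4 (1.70), Cys1 (1.47), Tef (1.43), Nr1d1 (1.26) and Cbr2 (0.68). Without 3 air libraries (ZT4-8 B and C and ZT16-20 D), the difference was no longer called for Cebpd (adjusted p = 0.176) or Nr1d1 (0.146).

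Among the 322 genes whose responses differed between lung and kidney, those named by smallest adjusted p, as lung minus kidney, were Dusp6 (2.88), Ctgf (2.80), Akap12 (2.69), Rcan1 (2.69), Errfi1 (2.63), Hspa1a (2.41), Ackr3 (2.40) and Arrdc2 (-2.81). Among the 707 that differed between lung and liver, those named, as lung minus liver, were Efna1 (-5.60), Gadd45b (-5.22), Gdf15 (-4.15), Hilpda (-3.92), Cited2 (-3.55), Hspa1b (3.38) and Litaf (1.85).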

How the results depend on the processing

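Over the alternatives run, the count of called genes ran from 1563 without air libraries B and C to 3039 from the 8 libraries alone; leaving out single libraries gave 2149 to 2538, and leaving out the 3 air libraries, chosen after seeing the data, 1872. The 31 phase differences became 66 with DESeq2, 16 without B and C and 19 without the 3 air libraries, and 19 to 38 without single libraries. The 322 lung-kidney differences became 506 with DESeq2, 164 without B and C and 206 to 289 without single libraries, and the 707 lung-liver differences became 414 without B and C. The cause of these shifts was not tested. No named gene's called value changed sign in these alternatives. Of 152 named genes, 142 kept their side of the threshold without each of the 8 libraries in turn, and 14 lost their call without B and C. Many of these genes were named by a call without B and C or by smallest p, so their counts do not describe all calls. Over all genes, 1258 of the 2743 called were not called without B and C.

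The replicate letters do not pair the groups compared, which held different mice: deviations of same-letter libraries in air and at 6% correlated at -0.138 to 0.0487. The joint fit took libraries of different tissues as independent, although they came from the same mice. Between lung and kidney, same-letter deviations correlated at -0.0681 to 0.238 and other pairs at -0.197 to 0.173. Between lung and liver these ranges were -0.0423 to 0.0853 and -0.128 to 0.0956. With the letter as a replicate block, 2523 genes were called, 25 differed between phases, and 299 and 657 differed from kidney and liver when libraries of 1 letter and oxygen level were taken as 1 mouse, which the labels do not state. In simulated data, where a smaller share of genes changed than was called here, 71% of genes with a log2 change of 1 were called. Changes of that size or smaller can therefore go uncalled, though the share need not be the same in the real libraries.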

Other observations

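1 further gene was chosen after its values were seen. Edn2, which encodes endothelin-2, had 1, 0, 0 and 2 reads in air libraries A to D and 11, 28, 10 and 24 reads in libraries A to D at 6% (4.41 ± 0.63, log2 fold change with SE; edgeR adjusted p = 2.20e-05).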
